A study of Mus musculus with 6 samples.

Results

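A set of 10 neuropeptide precursor genes was followed in RNA described as that of mouse embryonic motor neurons. It was taken at cervical and at thoracic levels of the spinal cord, and markers of other cell types were also detected in it. They are Pnoc, Penk, Sst, Adcyap1, Cartpt, Tac1, Npy, Gal, Cck and Nts, found by symbol among the 56805 genes in the count table. Total RNA depleted of ribosomal RNA was sequenced in 6 libraries, 3 from cervical and 3 from thoracic cord at e12.5. All 6 carry the genotype label control and were untreated, and the sources used here give neither the strain, nor the number of embryos in a library, nor the way the cells were isolated. By the series title, the libraries belong to work on how Hox5 activity diversifies motor neurons. Where a replicate is not tied to an embryo or litter, p-values measure only the spread between these libraries.

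Neuropeptides are made as longer precursor proteins that enter dense core granules, where convertases cut them at basic residues and other enzymes trim and amidate the ends. Released peptides act on G-protein-coupled receptors and modulate the action of fast transmitters such as acetylcholine, GABA, glycine and glutamate. In the spinal cord, several of these peptides mark classes of dorsal and ventral interneurons, and others are found in the thoracic preganglionic neurons that drive autonomic ganglia and the adrenal medulla. In bulk RNA, fewer cells of a type and less RNA per cell cannot be told apart.

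The region before the start site is shown for Sst, Cartpt and Adcyap1. Sst is the textbook gene for the cAMP response element, the sequence bound by the factor CREB. Cartpt and Adcyap1 are the members called higher in thoracic libraries, and both have a window in the same table. The sequences are the 250 bases before the start in RefSeq's GRCm38.p6, a different build from the mm39 coordinates of the counts, and are read 5′ to 3′ on the gene's strand. Sst lies at chr16:23890845-23891094 (minus strand), Cartpt at chr13:99900684-99900933 (minus strand) and Adcyap1 at chr17:93198767-93199016 (plus strand, the first of 2 listed starts). Capitals mark the full element TGACGTCA in Sst and Cartpt and the shorter form TGACG in Adcyap1.
Sst: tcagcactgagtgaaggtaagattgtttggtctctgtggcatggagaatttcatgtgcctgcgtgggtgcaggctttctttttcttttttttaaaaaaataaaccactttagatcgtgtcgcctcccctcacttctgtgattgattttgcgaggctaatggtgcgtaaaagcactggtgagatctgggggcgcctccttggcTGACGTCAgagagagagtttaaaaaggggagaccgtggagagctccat
Cartpt: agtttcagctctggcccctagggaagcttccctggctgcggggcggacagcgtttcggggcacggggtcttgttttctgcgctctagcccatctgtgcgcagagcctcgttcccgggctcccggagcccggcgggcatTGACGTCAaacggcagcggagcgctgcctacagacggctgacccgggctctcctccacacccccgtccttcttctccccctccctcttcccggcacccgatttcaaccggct
Adcyap1: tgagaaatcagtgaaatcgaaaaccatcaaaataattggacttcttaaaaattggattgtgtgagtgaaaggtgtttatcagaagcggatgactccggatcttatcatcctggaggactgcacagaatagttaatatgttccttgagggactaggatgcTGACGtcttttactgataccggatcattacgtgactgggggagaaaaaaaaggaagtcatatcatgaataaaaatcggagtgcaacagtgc
The full element began 48 bases before the start in Sst and 112 bases before it in Cartpt. In Adcyap1 the short form began 91 bases before the first listed start, and the same site began 242 bases before the second. Windows were listed for 8 of the 10 members, all except Pnoc and Penk. On either strand TGACGTCA was in 2 of these 8 genes, against 1.55% of 32851 windows of all genes. TGACG, which lies within the full element, was in 6 of the 8 (Sst, Cartpt, Adcyap1, Tac1, Cck and Nts), against 17.8% of all windows. TATAAA was in 1 of the 8, in the second Adcyap1 window (12.4% of all windows), and TAATTA in 1, Tac1 (4.84%). Sst and Cartpt, the members with the full element among those with a window, had fold changes of opposite sign, and Sst was not called. Whether the element has a part in regional differences was not tested.

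Pnoc rose in cervical libraries, Adcyap1 and Cartpt rose in thoracic ones, and Sst had the next smallest adjusted p without being called. Calls were made by edgeR's quasi-likelihood test over 21972 genes with region as the only term, at an adjusted p (Benjamini-Hochberg) below 0.05. Of the members, 9 passed the filter on low counts and 3 were called, 1 toward cervical and 2 toward thoracic libraries. In all tested genes 0.542% were called, 0.191% toward cervical and 0.350% toward thoracic libraries. With the replicate number as a block, 4 members were called, 2 in each direction, against 1.97% of all tested genes (0.573% and 1.39%). Nts did not pass the filter. The median log2 fold change (cervical minus thoracic) of the 9 tested members was 0.34, against 0.01 for all tested genes, with 7 members above 0 and 2 below. The members were chosen with earlier results of these data known, so shares above those of all tested genes are no evidence of enrichment. Levels are given as TMM-scaled CPM, the reads of a gene relative to the scaled total of its library, with the SD over 3 libraries.

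**Figure D1:**
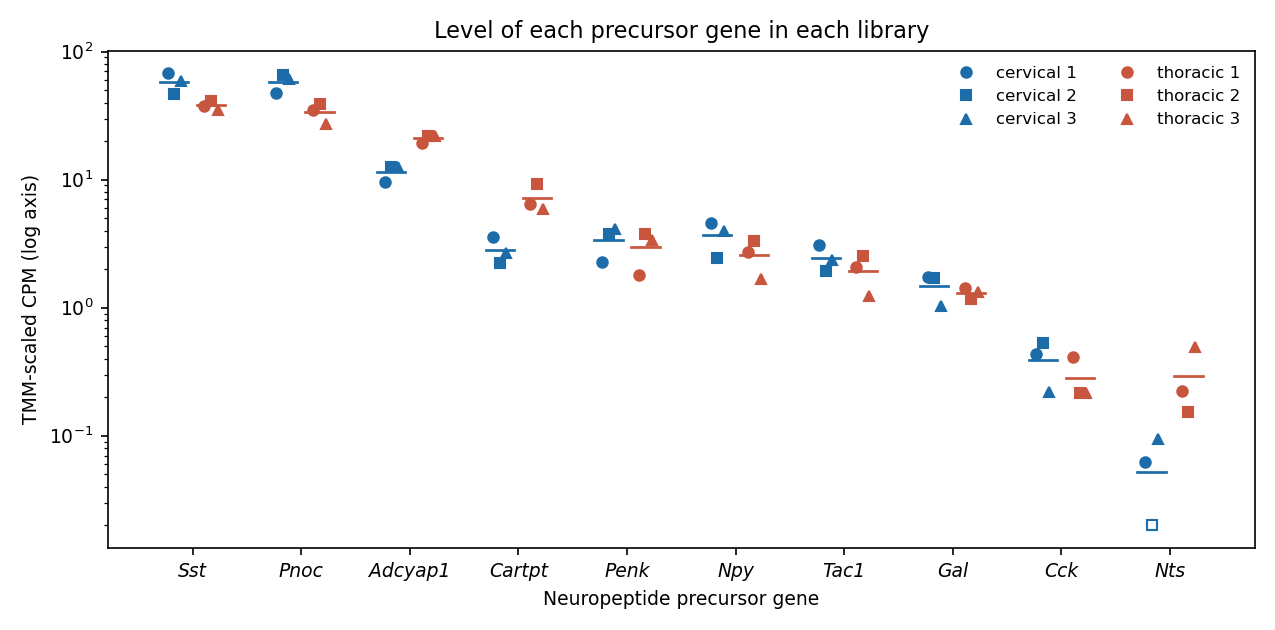
TMM-scaled CPM on a log axis for each precursor gene, with one point per library (blue cervical, red thoracic; marker shape gives the replicate number) and a line at each region's mean. Pnoc and Sst are near 30 to 70 CPM and higher in cervical libraries, Adcyap1 and Cartpt are higher in thoracic ones, and the cervical replicate 2 value of Nts, a count of 0, is drawn open at the foot of the axis.

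Among the members, the opioid family is represented by Pnoc, which encodes the precursor of nociceptin, and Penk, which encodes the precursor of the enkephalins. The opioid precursor genes Pdyn and Pomc are not members. Pdyn ran opposite to Pnoc without being called (log2 fold change -1.89), and Pomc was nearly equal (0.06). Pnoc (chromosome 14, 65638122 to 65662921, mm39) stood at 47.9, 65.4 and 61.6 CPM in cervical replicates 1 to 3 and at 35.1, 38.6 and 27.1 CPM in thoracic replicates 1 to 3. Every cervical value lay above every thoracic one, and the lowest cervical library was replicate 1. The means were 58.3 ± 9.21 and 33.6 ± 5.92 CPM (SD, n = 3 each), a 1.73-fold difference (log2 fold change 0.79 with SE 0.14, edgeR adjusted p = 0.0400). With the replicate block the edgeR adjusted p was 0.00206. With only genes averaging 1 CPM or more in the test, the edgeR adjusted p of Pnoc was 0.0521 and the call was lost. It was also lost without cervical replicate 2 (0.155) or 3 (0.167), and without thoracic replicate 1 (0.0901), 2 (0.0625) or 3 (0.115).

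Penk (chromosome 4, 4133531 to 4138819) was low and overlapped between the regions. Its values were 2.29, 3.76 and 4.10 CPM in cervical and 1.79, 3.74 and 3.40 CPM in thoracic replicates 1 to 3. Replicate 1 was the lowest library in each region. The log2 fold change was 0.20 with a 95% interval from -0.48 to 0.88 (edgeR adjusted p = 0.940), which spans differences of either sign. Penk shares 233 exonic bases with A830012C17Rik on the opposite strand, a gene with a mean of 2.17 counts. Without a stated strand setting, reads in those bases could belong to either gene, and no other member shares exonic bases with another gene.

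Among opioid receptors, Oprl1, the nociceptin receptor, was abundant and overlapped, at 104 ± 7.52 cervical and 98.9 ± 3.85 thoracic CPM (log2 fold change 0.07, edgeR adjusted p = 0.879). Oprm1, the mu receptor, measured 4.53, 3.96 and 2.97 CPM in the cervical and 5.06, 8.22 and 6.05 CPM in the thoracic replicates. The regions did not overlap, but Oprm1 was not called (log2 fold change -0.75, edgeR adjusted p = 0.282). The delta receptor Oprd1 (0.531 and 0.718 CPM) and the kappa receptor Oprk1 (0.604 and 0.781 CPM) had means under 1 CPM in both regions.

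Sst, which encodes the inhibitory peptide somatostatin, lies on chromosome 16 from 23708323 to 23709708. It measured 67.6, 46.3 and 58.4 CPM in the cervical and 37.7, 41.3 and 34.8 CPM in the thoracic replicates 1 to 3. The regions did not overlap, and cervical replicate 2 came nearest to the thoracic libraries. The means were 57.4 ± 10.7 and 38.0 ± 3.27 CPM, 1.51-fold apart (log2 fold change 0.60, SE 0.13), and the edgeR adjusted p of 0.0821 missed the threshold. Sst was called with the replicate block (edgeR adjusted p = 0.0133) and by DESeq2 (adjusted p = 4.68e-04), and by edgeR without cervical replicate 2 (0.0376). That was the only 1 of the 6 fits on 5 libraries to call Sst (edgeR adjusted p up to 0.274). It was not called with limma-voom (adjusted p = 0.104).

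Sstr2 overlapped between regions, at 10.5 ± 1.54 cervical and 9.83 ± 1.20 thoracic CPM. Sstr1 measured 4.06, 9.12 and 6.51 CPM in the cervical and 3.21, 3.37 and 3.24 CPM in the thoracic replicates. Every cervical value was above the thoracic ones, although replicate 1 only slightly so. Sstr1 differed by 1.004 on the log2 scale (edgeR adjusted p = 0.175) and was called with the block (edgeR adjusted p = 0.0486). Sstr3 was low, at 1.91 ± 0.455 and 1.09 ± 0.373 CPM (log2 fold change 0.79, edgeR adjusted p = 0.518).

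Adcyap1 encodes the precursor of PACAP, a peptide that raises cAMP and is a transmitter of preganglionic neurons at the adrenal medulla. It lies on chromosome 17 from 93506445 to 93513965 (mm39). Its values were 9.64, 12.498 and 12.58 CPM in cervical and 19.2, 21.9 and 21.8 CPM in thoracic replicates 1 to 3. The libraries of each region lay close together, and the regions were well apart. At 11.6 ± 1.67 against 21.0 ± 1.55 CPM, Adcyap1 was 1.81-fold higher on the thoracic side (log2 fold change -0.86 with SE 0.13, edgeR adjusted p = 0.0207). The block gave an edgeR adjusted p of 0.00102. The call was lost without cervical replicate 2 (0.0556) or 3 (0.0705) and without thoracic replicate 2 (0.0664) or 3 (0.0806).

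Its main receptor gene, Adcyap1r1, which encodes PAC1, measured 131, 157 and 145 CPM in the cervical and 169, 197 and 185 CPM in the thoracic replicates. The regions did not overlap. The log2 fold change of Adcyap1r1 was -0.35 (SE 0.08, edgeR adjusted p = 0.109), and it was called with the block (edgeR adjusted p = 0.00590). The receptors shared with VIP, Vipr1 and Vipr2, had means between 1.08 and 1.32 CPM in both regions, with log2 fold changes of -0.19 and -0.10.

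Cartpt encodes the CART prepropeptide, found among other places in sympathetic preganglionic neurons, and lies on chromosome 13 from 100034997 to 100037599. It had the largest fold change of the 9 tested members. Its values were 3.56, 2.23 and 2.69 CPM in cervical and 6.44, 9.32 and 5.93 CPM in thoracic replicates 1 to 3. All thoracic values lay above all cervical ones, with thoracic replicate 2 the highest. The means were 2.83 ± 0.678 and 7.23 ± 1.83 CPM, a 2.55-fold difference (log2 fold change -1.35 with SE 0.23, edgeR adjusted p = 0.0369). The block gave an edgeR adjusted p of 0.00776. The call was lost without cervical replicate 2 (0.134) or 3 (0.156), and without thoracic replicate 1 (0.0629), 2 (0.112) or 3 (0.0692).

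**Figure D2:**
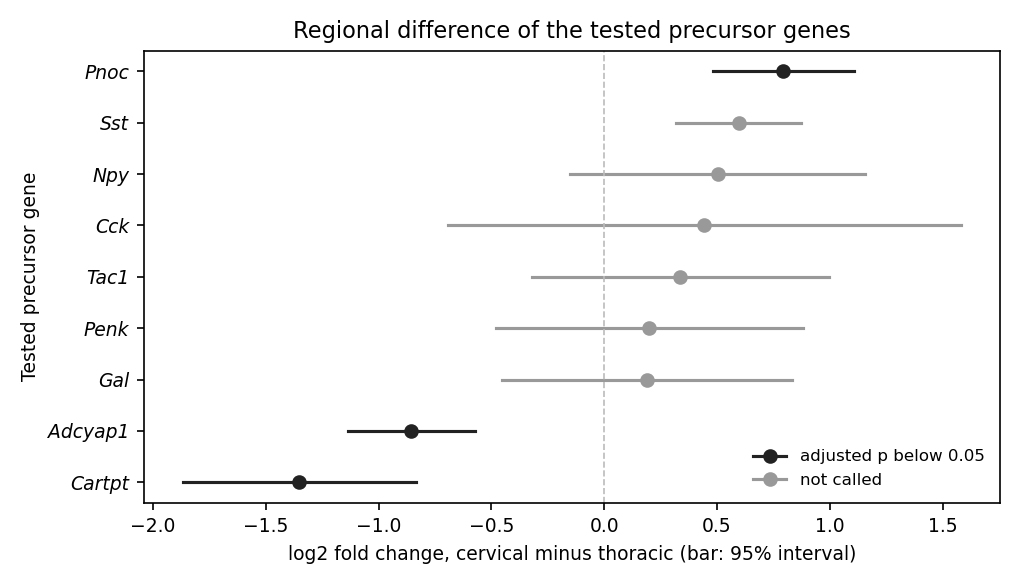
Log2 fold change of the 9 tested precursor genes, cervical minus thoracic, with bars for the 95% interval and black for genes with an edgeR adjusted p below 0.05. Pnoc (0.79) lies to the right of 0 and Adcyap1 (-0.86) and Cartpt (-1.35) to the left, while the bars of Npy, Cck, Tac1, Penk and Gal cross 0.

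Tac1, Npy, Gal and Cck were not called and overlapped between the regions. Tac1 encodes the precursor of substance P and neurokinin A, and measured 3.10, 1.94 and 2.35 CPM in the cervical and 2.07, 2.52 and 1.23 CPM in the thoracic replicates. Its log2 fold change was 0.34 (95% interval -0.32 to 0.996, edgeR adjusted p = 0.861). Npy, the gene of neuropeptide Y, measured 4.59, 2.46 and 3.94 CPM in the cervical and 2.72, 3.34 and 1.67 CPM in the thoracic replicates. In both genes cervical replicate 2 and thoracic replicate 3 were the lowest libraries of their region. The log2 fold change of Npy was 0.50 (95% interval -0.15 to 1.16, edgeR adjusted p = 0.751).

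Gal, which encodes galanin, measured 1.74, 1.70 and 1.03 CPM in the cervical and 1.42, 1.17 and 1.33 CPM in the thoracic replicates (log2 fold change 0.19, 95% interval -0.45 to 0.83, edgeR adjusted p = 0.940). Cck, which encodes cholecystokinin, was near the lower limit of the filter. It had 14, 18 and 7 counts in cervical and 22, 7 and 7 counts in thoracic replicates, or means of 0.394 ± 0.158 and 0.280 ± 0.113 CPM. Its interval ran from -0.69 to 1.58 on the log2 scale (edgeR adjusted p = 0.910), so a difference as large as that of Pnoc was not excluded. The intervals of Penk, Tac1, Npy and Gal also contained the log2 fold change of Pnoc (0.79).

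Nts, which encodes neurotensin and neuromedin N, was the lowest member. It had 2, 0 and 3 counts in cervical and 12, 5 and 16 counts in thoracic replicates 1 to 3. Each thoracic library held more counts than any cervical one, and thoracic replicate 1 also had the largest total. Summed over libraries, 33 thoracic counts against 5 cervical ones gave a ratio of 5.47 after scaling by library size, with an exact 95% interval from 2.12 to 18. That interval covers counting error only and treats reads as independent molecules. Without the low-count filter edgeR did not call Nts (log2 fold change -2.41, SE 0.98, edgeR adjusted p = 0.349).

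Tacr1, the substance P receptor, measured 3.47, 10.7 and 10.7 CPM in the cervical and 13.4, 17.9 and 20.1 CPM in the thoracic replicates. The regions did not overlap, and cervical replicate 1 was far below the other cervical libraries. The log2 fold change of Tacr1 was -1.05 (edgeR adjusted p = 0.324), and it was called with the block (edgeR adjusted p = 0.00516). Npy2r, at 0.366 ± 0.0774 and 0.879 ± 0.0454 CPM, and the cholecystokinin receptor gene Cckar, at 1.37 ± 0.0870 and 2.55 ± 0.897 CPM, were not called (log2 fold changes -1.26 and -0.89, edgeR adjusted p of 0.274 and 0.340). The neurotensin-binding sorting receptor Sort1 was abundant and nearly equal, at 313 ± 12.52 and 322 ± 6.41 CPM. The remaining tested receptors Npy1r, Galr1, Galr2, Ntsr1, Tacr3, Sstr4 and Cckbr had means between 0.423 and 3.46 CPM. Tacr2, Npy4r, Npy5r, Npy6r, Galr3, Ntsr2 and Sstr5 did not pass the filter, with at most 0.440 CPM in any library. Of 28 receptor genes, 21 were tested and none was called by edgeR. At an unadjusted p below 0.05, which 8.47% of all tested genes reached, there were 2 toward cervical and 5 toward thoracic libraries. The block called 1 toward cervical and 2 toward thoracic, against 0.573% and 1.39% of all tested genes.

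Levels of different members were compared per length, as TPM computed from the counts and the summed exon bases in the table. Sst was the highest, at 319.5 ± 64.8 cervical and 218 ± 13.7 thoracic TPM, and Pnoc followed at 108 ± 15.3 and 64.4 ± 9.88 TPM. The ranges of these top members over the 6 libraries overlapped neither each other nor that of the next gene. Npy, Adcyap1, Cartpt, Penk and Gal formed a middle group between 4.52 and 33.1 TPM in which each neighbour's range overlapped the next. In cervical libraries Npy was the third at 26.0 ± 8.09 TPM, and in thoracic libraries Cartpt was, at 23.4 ± 5.43 TPM, with Adcyap1 at 23.0 ± 1.88 TPM. Tac1, Cck and Nts were lowest, with means over all libraries of 2.63, 1.05 and 0.571 TPM and overlapping neighbours.

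Within replicate numbers, the ratio of cervical to thoracic CPM showed how even each difference was. For Adcyap1 the ratio was 0.502, 0.570 and 0.577 in replicates 1, 2 and 3, the narrowest spread among the called members. For Cartpt it was 0.554, 0.239 and 0.454, and replicate 2 had the widest gap. For Pnoc it was 1.36, 1.69 and 2.28, all above 1, and for Sst it was 1.79, 1.12 and 1.68. Npy and Tac1 had ratios above 1 in replicates 1 and 3 and below 1 in replicate 2 (0.737 and 0.770). Gal had ratios of 1.22, 1.46 and 0.778, below 1 in replicate 3. Cck was 2.46 in replicate 2 and within 6% of equality elsewhere, at 1.06 and 1.01. The direction was the same in all 3 replicate numbers for 6 of the 9 tested members, against 31.4% of all tested genes, but a ratio near 1 put Penk and Cck among them. Penk had ratios of 1.28, 1.004 and 1.21, of which that of replicate 2 fell below 1 with median-of-ratios scaling. Cck had 7 counts in each library of replicate 3, so its ratio there came from the library scaling alone. Regions did not overlap for 4 of the 9, against 13.7% of all tested genes. Pnoc and Sst were the 2 on the cervical side, where 6.25% of all tested genes lay, and Adcyap1 and Cartpt the 2 on the thoracic side, where 7.50% lay. Because the members were chosen with earlier results known, these shares do not measure an excess over all genes.

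**Figure D3:**
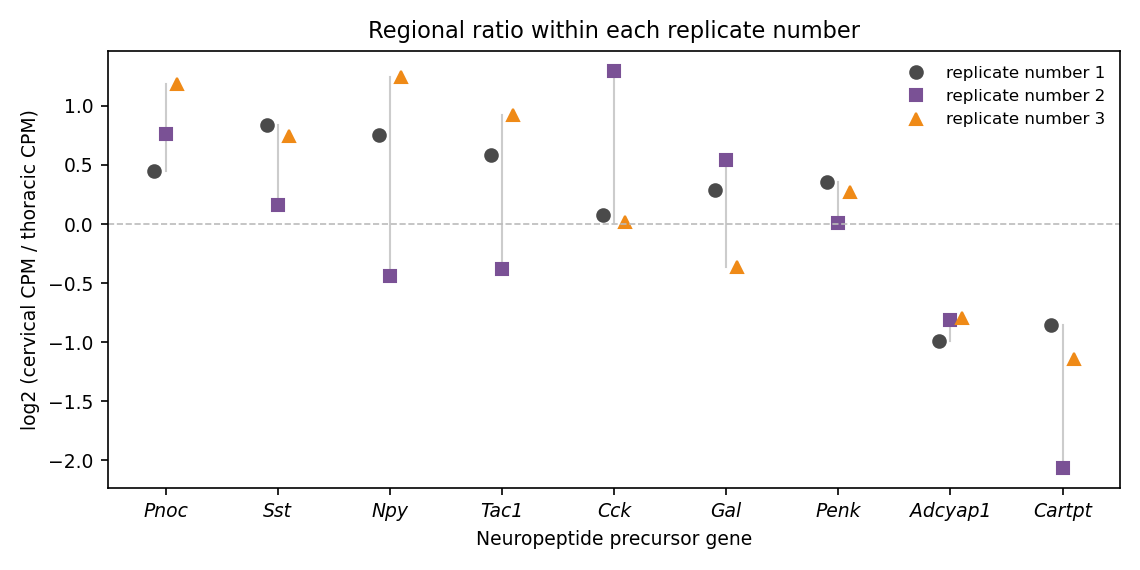
Log2 ratio of cervical to thoracic CPM for the 9 tested precursor genes, one point per replicate number, with a grey line spanning the 3 values. The 3 ratios of Adcyap1 (0.502 to 0.577) and Cartpt (0.239 to 0.554) lie below 0 on this scale and those of Pnoc (1.36 to 2.28) above it, while Npy, Tac1 and Gal fall on both sides.

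Other precursor genes were mostly near or below the detection limit. Of 50 listed genes, 23 were tested and none was called by edgeR. An unadjusted p below 0.05, which 8.47% of all tested genes reached, was found for 1 in the cervical and 3 in the thoracic direction. Pdyn, which encodes the precursor of the dynorphins, had the highest mean CPM of them. It measured 1.43, 9.01 and 10.1 CPM in the cervical and 15.8, 22.7 and 38.0 CPM in the thoracic replicates. The regions did not overlap, but the spread within each was wide. The log2 fold change of Pdyn was -1.89 (SE 0.51, edgeR adjusted p = 0.208), and it was called with the block (edgeR adjusted p = 8.80e-04). Grp, the gene of gastrin-releasing peptide, measured 3.56, 1.85 and 2.44 CPM in the cervical and 1.08, 1.38 and 0.463 CPM in the thoracic replicates (log2 fold change 1.41, edgeR adjusted p = 0.208). Ghrl had the next highest mean CPM, at 3.86 ± 0.473 and 3.88 ± 0.636 CPM, but 2 partner genes on the opposite strand share exonic bases with it. Nmu, Kiss1, Prlh and Nps had a count of 0 in all 6 libraries.

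Among the genes that process peptides, Cpe, the carboxypeptidase that trims basic residues, measured 376 ± 3.87 and 375 ± 31.97 CPM. Of 15 tested processing genes, edgeR called none, with 4 at an unadjusted p below 0.05, all in the thoracic direction. Of all 21972 tested genes, 1141 had such a p in the thoracic and 719 in the cervical direction. The smallest adjusted p were those of the carboxypeptidase Cpd (log2 fold change -0.26, edgeR adjusted p = 0.118) and of Pam, the enzyme that amidates peptide ends (log2 fold change -0.37, edgeR adjusted p = 0.160, blocked 0.0111). Pam shares 188 exonic bases with B230216N24Rik.

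Of 12 granule and release genes, edgeR called none. At an unadjusted p below 0.05 (8.47% of all tested genes) were 1 in the cervical and 3 in the thoracic direction. With the block, which called 1.39% of all tested genes toward thoracic libraries, 2 were called, both higher in thoracic libraries. These were Syt4, a synaptotagmin of dense core granules (means of 84.6 ± 9.26 and 118 ± 11.3 CPM, a log2 difference of -0.47, edgeR adjusted p = 0.0544 and 0.0133 with the block), and the granin Scg2 (means of 24.5 ± 5.77 and 36.8 ± 4.85 CPM, a log2 difference of -0.58, edgeR adjusted p = 0.198 and 0.0102 with the block). Syt4 shares 566 exonic bases with Gm26658 on the opposite strand, a gene with a mean of 28 counts. By CPM, which is not corrected for length, Cadps (542 ± 46.1 and 494 ± 30.4 CPM) and Scg3 (163 ± 5.52 and 172 ± 5.17 CPM) were highest in the list. Per length the order differed, with Pcsk1n first at 261 ± 17.2 cervical and 269.7 ± 20.03 thoracic TPM, then Scg3 (239 ± 11.4 and 260.4 ± 4.26 TPM) and Cadps (144 ± 14.9 and 136 ± 11.8 TPM). None of the 3 was called.

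Among 12 tested peptidases, Mme rose in thoracic libraries, and it was the only one called. Mme encodes neprilysin, which degrades enkephalins and substance P. It measured 0.806, 0.733 and 2.28 CPM in the cervical and 5.75, 6.53 and 14.6 CPM in the thoracic replicates (log2 fold change -2.81 with SE 0.46, edgeR adjusted p = 0.0291). The call was lost without cervical replicate 2 (0.109) and without thoracic replicate 2 (0.0608) or 3 (0.0883), and with limma-voom (adjusted p = 0.0671). Npepps (267 ± 9.73 and 272 ± 7.71 CPM) and Lnpep (199 ± 3.82 and 206 ± 17.1 CPM) had the highest CPM of the peptidases and were also the highest per length. Ece1 had the next smallest adjusted p (log2 fold change -0.22, edgeR adjusted p = 0.336).

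**Figure D4:**
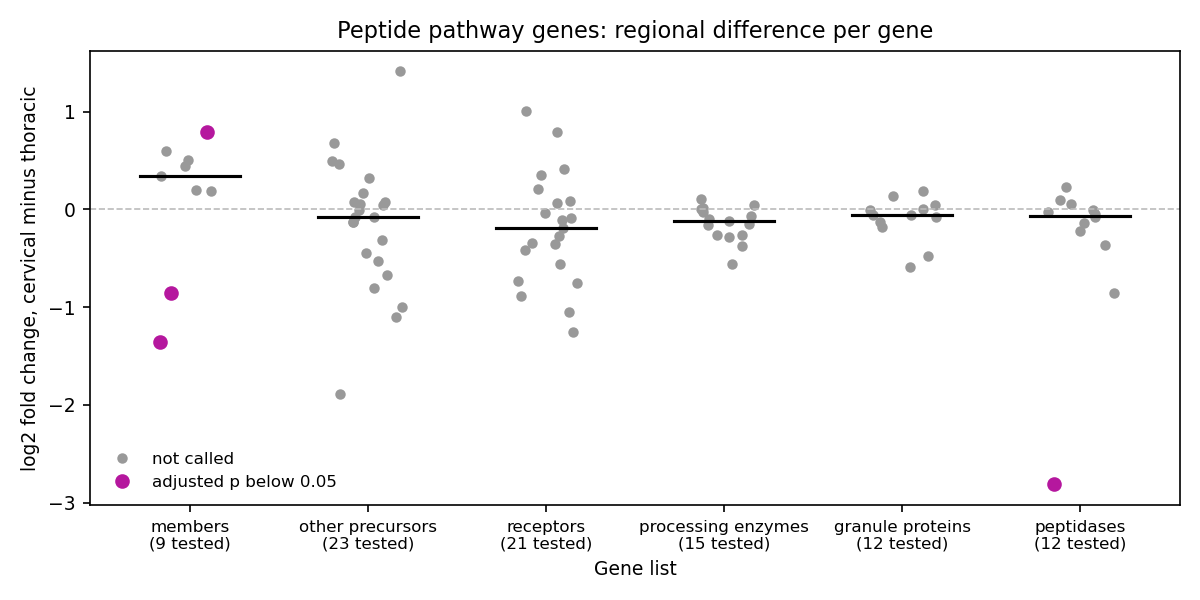
Log2 fold change of every tested gene in the member list and in the lists of other precursors, receptors, processing enzymes, granule proteins and peptidases, with a black line at each median and magenta for an edgeR adjusted p below 0.05. Of the 92 points, 4 are magenta: Pnoc, Adcyap1, Cartpt and the peptidase Mme.

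Markers of several cell types differed by region alongside these members. For comparison, 0.191% of all tested genes were called toward cervical and 0.350% toward thoracic libraries, and 0.573% and 1.39% with the block. The 9 motor neuron markers were all detected, with summed levels of 358 to 724 CPM in cervical and 448 to 669 CPM in thoracic libraries. The regions overlapped for all 9, and 3 had a positive and 6 a negative log2 fold change. None was called without the block. With it, Isl1 and Slc18a3 were called toward thoracic libraries, the direction of Adcyap1 and Cartpt (edgeR adjusted p of 0.00105 and 0.0303, beside log2 fold changes of -0.62 and -0.51 without the block).

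Inhibitory interneuron markers summed to 1744 to 1924 cervical and 1453 to 1513 thoracic CPM, the direction of Pnoc and Sst. These sums exceeded those of the motor neuron markers in every library. Such sums depend on the genes listed and are not corrected for length, so they do not compare amounts of cells. The levels of the members were not assigned to motor neurons or to any other cell type. Of the 10 inhibitory interneuron markers 9 were tested and all 9 had a positive log2 fold change, as did 11447 of all 21972 tested genes. The shared direction holds for this list only. It leaves out Gata2, Gata3 and Tal1, which were listed with neurons contacting the cerebrospinal fluid and had negative log2 fold changes (-0.38, -0.85 and -0.27). Pax2, Slc6a5 and Foxd3 were called (log2 fold changes 0.33, 0.45 and 0.38, edgeR adjusted p of 0.0462, 0.0417 and 0.0207), and the block added Gad2 (edgeR adjusted p = 0.0280). Of the 6 fits on 5 libraries, none called Pax2 or Slc6a5, and 2 called Foxd3, those without replicate 1 of either region. Sensory ganglion markers, 6 of 8 tested and none called, summed to 18.7 to 47.3 cervical and 15.9 to 27.8 thoracic CPM. With the block, Runx1 was called toward cervical libraries (edgeR adjusted p = 0.0109).

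In the direction of Adcyap1 and Cartpt, the 3 preganglionic markers summed to 147 to 163 cervical and 206 to 299 thoracic CPM. Zeb2 made up most of this sum, with means of 108 cervical and 143 thoracic CPM, against 8.41 and 37.1 CPM for Nos1. Fbn2 overlapped between the regions. Nos1 and Zeb2 were called (log2 fold changes -2.14 and -0.40, edgeR adjusted p of 0.0207 and 0.0484), and Fbn2 with the block (edgeR adjusted p = 3.57e-04). The Nos1 call was lost without cervical replicate 3 (0.109) and with limma-voom (adjusted p = 0.0614), and Zeb2 was called in no fit on 5 libraries. Markers of neurons contacting the cerebrospinal fluid summed to 31.0 to 38.1 and 46.8 to 60.7 CPM. Of these, Pkd2l1 and Gata3 were called toward thoracic libraries (log2 fold changes -2.38 and -0.85, edgeR adjusted p of 0.0249 for both). Each was called in 2 of the 6 fits on 5 libraries, with edgeR adjusted p up to 0.128 and 0.119, Pkd2l1 without cervical replicate 1 or thoracic replicate 2 and Gata3 without replicate 1 of either region.

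Excitatory interneuron markers summed to 212 to 227 cervical and 248 to 288 thoracic CPM. Sim1 and Lmx1b were called toward thoracic libraries (log2 fold changes -2.25 and -1.08, edgeR adjusted p of 0.0192 and 0.0143), and Lhx9 with the block (edgeR adjusted p = 0.00656). Sim1 was called in 2 of the 6 fits on 5 libraries, those without replicate 1 of either region. Lmx1b was called in 4, and lost without cervical replicate 2 (0.0545) or 3 (0.0530). Lhx2 ran the other way without overlap and was not called (log2 fold change 1.82, edgeR adjusted p = 0.246).

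Summed progenitor markers overlapped, at 846 to 1106 cervical and 1032 to 1356 thoracic CPM. Of the 8 tested, 7 had a negative and 1 a positive log2 fold change. Nes, Vim and Mki67 did not overlap, were not called (edgeR adjusted p of 0.126, 0.0859 and 0.130), and were called toward thoracic libraries with the block (9.03e-04, 7.30e-04 and 0.0221). Mesenchyme markers summed to 13.8 to 152 and 85.5 to 159 CPM, and all 7 tested had a negative log2 fold change. None was called without the block, and Col1a1 and Col3a1 were called with it (edgeR adjusted p of 0.0122 and 0.0331). Cervical replicate 3 stood apart from the other cervical libraries, with Col3a1 at 74.9 CPM against 5.83 and 12.2 CPM. Blood markers summed to 9.01 to 17.9 and 6.62 to 9.85 CPM. No marker of these lists was at 0 in all 6 libraries. The part of any of these cell types in the levels of the members was not tested.

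By the pattern over the 6 libraries, the genes most like each called member and Sst were listed among the tested genes that averaged 10 CPM or more. The measure was Pearson's r of log2 CPM, as a description, and the 6 libraries share the regional split. For Pnoc these were Gm18422, Tmem70 and Phlda1 (r = 0.992, 0.992 and 0.991). For Adcyap1 they were Fn1, Gsg1l and Ctnna1 (0.995, 0.993 and 0.993), for Cartpt Prag1, Clspn and Qars (0.996, 0.990 and 0.987), and for Sst Natd1, Rbm26 and Nemp2 (0.994, 0.987 and 0.984). Between 86 and 207 genes had r above 0.9 with each of these members, so 6 libraries separate few patterns.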

How the data were processed

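RNA of 3 cervical and 3 thoracic motor neuron samples was extracted with a kit for small inputs and made into stranded libraries from 10 to 20 ng with 15 PCR cycles, per the labels' protocols. The authors deposited raw read counts per gene, with mm39 coordinates and summed exon length, and the submitters' processing notes name FastQC 0.11.9, STAR 2.7.5b and featureCounts 2.0.1. No source used here gives the annotation release or the strand setting. Library totals were 32103071 to 33790634 counts, and 53186131 in thoracic replicate 1.

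Counts were filtered with edgeR 4.0.16 (R 4.3.3, minimum count 10), which kept 21972 genes and removed genes holding 0.117% of counts, then TMM-scaled and tested with the quasi-likelihood test and Benjamini-Hochberg adjustment. Standard errors are the absolute log2 fold change over the root of its F statistic. Alternatives were other scalings, filters, DESeq2 1.42.0, limma-voom (limma 3.58.1), a replicate block and leaving out each library. The test was also tried on simulated data, where it found large changes, missed most small ones and made more false calls than its nominal level, so calls near the threshold are less certain than their adjusted p. Replicate numbers come from the titles, and same-numbered libraries deviated together from their region's mean (correlations of 0.163, 0.160 and 0.195 over genes). The numbers were therefore taken to pair the samples in the block fit and in the ratios. The main calls come from the fit with region as the only term, which leaves this pairing out.

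The members and gene lists were chosen with earlier results of these data known. Named genes were all members, their receptors, and in each related list the called genes, the 2 smallest adjusted p and the 2 highest mean CPM. For each called member and Sst, the 3 genes most correlated with it were added. Of the marker lists, genes called with or without the block were named, except for 1 that is not reported here. Pcsk1n, Lhx2, Pomc, Gata2, Tal1 and the precursors at a count of 0 were named after their values were seen.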

Additional observations from a re-analysis of the deposited data

How the results depend on the processing

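The member calls depended on single libraries. Leaving out each library in turn gave 0 to 3 called members (0 to 1 higher in cervical, 0 to 2 higher in thoracic libraries), and 9 to 159 called genes in all, 1 to 48 higher in cervical and 8 to 111 higher in thoracic libraries. The directions of Pnoc, Sst, Adcyap1 and Cartpt held in all 6 of these fits, while leaving out each library gave Penk log2 fold changes from -0.081 (without thoracic replicate 1) to 0.416 (without cervical replicate 1). The replicate block, which pairs libraries of the same number, called 432 genes (126 and 306) and 2 members higher in cervical libraries, Pnoc and Sst. DESeq2 called 408 genes (126 and 282) and no low-count filter 747 (232 and 515), each with 2 members higher in cervical libraries. At a mean CPM of at least 1, 0 members were higher in cervical libraries. Adcyap1 and Cartpt were called in all 7 alternatives that kept every library, Pnoc in 6 and Sst in 3. The order of levels per length was the same with RPKM. Low counts limit Cck and Nts.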
